A study of Mus musculus with 1009 samples.

Results

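Young mouse plasma (YMP) or phosphate-buffered saline (PBS) was given to old mice, and small RNA was then sequenced from the thalamus, pons, medulla and cerebellum. These 4 regions gave 26 libraries of the 68 in the plasma cohort and of 1009 in the whole series, and they were chosen by the region and treatment in the sample labels, not by any measured value. The other 7 regions of the same cohort gave 42 libraries. All 7 mice of the cohort were male C57BL/6JN animals labelled 19 months of age and injected retro-orbitally, 4 with PBS (mice 72, 76, 80 and 84) and 3 with YMP (mice 73, 77 and 81). The study's text gives a slightly younger age at injection than the labels. The thalamus and the medulla each had 4 PBS and 3 YMP libraries. The pons had 3 and 3, with no PBS library from mouse 72, and the cerebellum had 3 and 3, with no PBS library from mouse 76. By the study's methods the plasma was pooled from young adult males, dialysed and injected repeatedly, and the animals were perfused before tissue was punched from each region.

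MicroRNAs (miRNAs) are short RNAs that guide Argonaute proteins to messenger RNAs and lower their translation or stability. The bases 2 to 8 from the 5′ end, called the seed, set most of the targets. The hindbrain and cerebellum carry miRNAs from the Hox clusters, which follow the head-to-tail axis, while blood, microglia and the choroid plexus contribute miRNAs of their own to a tissue punch. Young plasma contains proteins and extracellular RNA, and its injection has been studied as an intervention in aged rodents.

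The miRNAs on which the results turn are printed with the seed in capitals. miR-132-3p and miR-212-3p are shown because they share a seed and come from neighbouring hairpins, yet their reads behaved differently. miR-429-3p and miR-200b-3p are the called pair of the miR-200 family. miR-5709-3p is the called miRNA that rests on a single library. miR-155-5p, together with miR-5100 and with miR-146a-5p, is a miRNA that the study followed through aging, and miR-451a marks red blood cells. let-7e-5p is the let-7 member nearest to a shift, and let-7c-5p took the largest share of reads in most libraries. miR-206-3p and miR-497a-5p mark the cerebellum in these libraries.
miR-132-3p: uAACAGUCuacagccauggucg
miR-212-3p: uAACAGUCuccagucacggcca
miR-429-3p: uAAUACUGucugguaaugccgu
miR-200b-3p: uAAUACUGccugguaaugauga
miR-5709-3p: aAAGUCUUaaggguguguauug
miR-155-5p: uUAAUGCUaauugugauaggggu
miR-146a-5p: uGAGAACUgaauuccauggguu
miR-5100: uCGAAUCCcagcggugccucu
miR-451a: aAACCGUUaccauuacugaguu
let-7e-5p: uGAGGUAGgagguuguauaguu
let-7c-5p: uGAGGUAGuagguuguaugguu
miR-206-3p: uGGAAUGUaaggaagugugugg
miR-497a-5p: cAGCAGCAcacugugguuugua
The sequences are those of RefSeq on GRCm38.p6. Mature miR-132-3p lies at chr11:75173723-75173744 on the plus strand, in an intron of 1700016P03Rik, and 203 bases separate its hairpin from that of miR-212. Mature miR-429-3p lies at chr4:156053916-156053937 and miR-200b-3p at chr4:156055685-156055706, both on the minus strand, in an exon and an intron of Gm13648. Mature miR-155-5p lies at chr16:84714143-84714165 on the plus strand in an exon of its host gene Mir155hg.

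The libraries differed widely from each other within regions and groups, and this touches every result. They held between 1.93 and 31.5 mega-reads of miRNA (1 mega-read is 1000000 reads) and between 425 and 1207 detected miRNAs. Detection fell below 700 miRNAs in 3 libraries. Mouse 73 (YMP) gave 425 in the pons and 497 in the thalamus, and mouse 76 (PBS) gave 606 in the thalamus. In these 3 libraries let-7c-5p alone took 37.3%, 34.9% and 27.0% of the reads. Mouse 73 also had the fewest detected miRNAs in the cerebellum, at 838, and had 1173 in the medulla. The scaling factors of the libraries (trimmed mean of M-values, TMM) ran from 0.115 in thalamus YMP 73 to 2.60, and a low factor raises every CPM printed for a library, so values without the factor, as reads per mega-read, are given where a result turns on it. Of 792 pairs of a named miRNA and a region, PBS and YMP libraries were apart in 25 as CPM and in 13 without the factors. In 5 they were apart on both scales. The shares of all miRNAs tested that were apart as CPM were 1.24% (thalamus), 3.89% (pons), 3.29% (medulla) and 4.94% (cerebellum). Without the factors they were 0.414%, 2.27%, 1.91% and 4.13%. These shares are the background for each miRNA said below to be apart. The first principal component, after regional means were removed, held 41.3% of the variance and was led by pons YMP 73, thalamus YMP 73, thalamus PBS 76 and medulla YMP 81 in that order. In bulk punches, fewer cells of a type and less RNA per cell cannot be told apart.

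**Figure D1:**
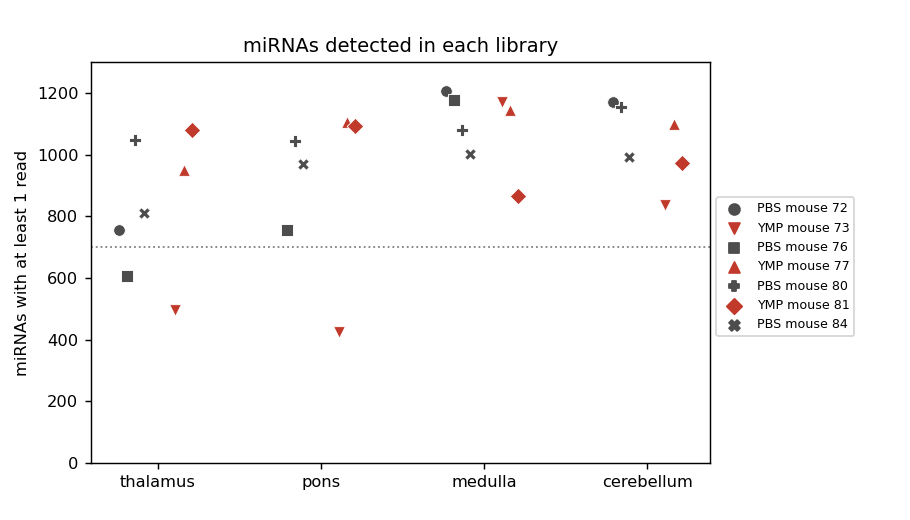
Number of detected miRNAs (vertical axis) in each of the 26 libraries by region, with PBS in grey, YMP in red and a symbol for each mouse. The dotted line marks 700 detected miRNAs, and 3 libraries lie under it, of which 2 are from YMP mouse 73 and 1 is from PBS mouse 76.

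The listed cerebellar markers had their highest medians in the cerebellum, and most listed Hox-cluster miRNAs in the medulla, which matched the labels. The other leaders named below were picked by their differences between the labelled regions, so they do not check the labels. Levels differed among the 4 regions for 290 of 1329 miRNAs tested (21.8%, limma, adjusted p below 0.05). Without the 3 libraries of low detection 300 passed, of which 241 were among the 290. The cerebellum stood apart through miR-206-3p, better known from muscle, at a median of 13300.2 CPM (counts in 1000000 miRNA reads, scaled by trimmed mean of M-values) against 65.6 in the thalamus, 384 in the pons and 122 in the medulla. The lowest cerebellar library, at 3218 CPM, was above the highest library of any other region, at 556. Its hairpin neighbour miR-133b-3p, whose hairpin lies 3686 bases away on chromosome 1, had a cerebellar median of 1441 CPM. miR-195a-5p and miR-497a-5p, which share a seed and whose hairpins are 241 bases apart on chromosome 11, had cerebellar medians of 1283 and 2078 CPM, and their highest values elsewhere were 120 and 255 CPM.

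Of the 7 Hox-cluster miRNAs listed, 5 had their highest median in the medulla, and 6 differed by region, the exception being miR-10b-3p (adjusted p = 0.357, limma). The medians of miR-196a-5p and miR-196b-5p were slightly higher in the cerebellum, at 5.17 and 1.45 CPM, than in the medulla, at 5.03 and 1.39 CPM. miR-10b-5p, from the HoxD cluster, had a median of 21.0 CPM in the medulla, 2.42 in the cerebellum, 0.652 in the pons and 0 in the thalamus. miR-10a-5p followed with medians of 15.2, 1.87, 1.88 and 0 CPM, and miR-615-3p with 14.7, 3.92, 3.03 and 0.0777 CPM. No thalamic library exceeded 0.585 CPM for miR-10a-5p, whereas the lowest medullary library held 1.04. The thalamus was led by miR-7080-5p, with a median of 107 CPM against 17.4 in the pons, 1.82 in the medulla and 0.0957 in the cerebellum, and by miR-7689-3p at 353 CPM against 44.5, 18.9 and 25.6. Pons was the least distinct of the regions, and its leaders, such as miR-139-3p with a median of 1356 CPM against 955 in the thalamus, overlapped with another region. The neuronal miRNA miR-124-3p was present at 19126 to 270694 CPM in all 26 libraries.

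The first question was whether young plasma shifted any miRNA across the 4 regions together. It did not do so detectably. With region as a term and the mouse as a block, 0 of 1329 miRNAs passed (0% called, limma voom, adjusted p below 0.05 and fold of at least 1.5), the smallest adjusted p was 0.998, and 15 miRNAs had an unadjusted p below 0.05. edgeR without the block also called 0, with 67 at an unadjusted p below 0.05, and so did DESeq2, with 58. Without the 3 libraries of low detection limma again called 0, with 58 at an unadjusted p below 0.05. The median difference over all miRNAs was 0.03 on the log2 scale, and it was -0.43 when libraries were scaled to total miRNA reads instead, so the sign of a small difference depended on the scaling.

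The miRNAs nearest to a shared shift upward were miR-129-5p, miR-323-5p, let-7e-5p, miR-382-5p and miR-669c-5p, and none passed (adjusted p = 0.998 for each, limma). Each was higher under YMP in 4 of 4 regions by its mean log2 level. They were picked by pooled p from the same libraries, so this agreement is not separate evidence. miR-129-5p, a brain-enriched miRNA, was at 1644 ± 1291 CPM in PBS libraries (SD, n = 14) and 2645 ± 1873 CPM in YMP libraries (SD, n = 12), a log2 difference of 0.62 with a 95% interval from -0.17 to 1.42. In the medulla its PBS libraries read 611, 606, 550 and 1378 CPM and its YMP libraries 1237, 744 and 3691 CPM. The groups overlapped there, as they did in each other region. Without the TMM factors they overlapped in the thalamus, pons and cerebellum, and in the medulla PBS libraries held 1200 to 1790 reads per mega-read and YMP libraries 1935 to 2848.

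miR-323-5p, from the imprinted Dlk1-Dio3 cluster on chromosome 12, differed by 0.98 (95% interval -0.35 to 2.31). Its thalamic values show how few libraries carried this. PBS mice read 357, 4023, 176 and 208 CPM and YMP mice 13920, 965 and 127 CPM. The highest values of both groups were in the libraries with the fewest detected miRNAs, mouse 73 in YMP and mouse 76 in PBS, which also had the lowest TMM factors of the region (0.115 and 0.303). Without the factors these 2 libraries held 1605 and 1218 reads of miR-323-5p per mega-read, and YMP mouse 77 held 1086. Without YMP mouse 73 the difference over the 4 regions was 0.29.

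let-7e-5p belongs to the let-7 family, which is abundant in mature neurons. Its share of reads in the thalamus was 2.94%, 8.16%, 3.14% and 4.37% in PBS mice and 11.3%, 4.06% and 3.77% in YMP mice. In the medulla the shares were 2.17%, 2.99%, 2.66% and 2.86% against 3.19%, 2.47% and 6.51%. The high YMP values came from mouse 73 in the thalamus and mouse 81 in the medulla. Over the 4 regions the log2 difference of 0.80 (95% interval -0.29 to 1.90) fell to 0.15 without YMP mouse 73. All 9 let-7 members tested had positive differences (median 0.44, against 53.3% positive and a median of 0.03 over all miRNAs). Scaled to total reads, 5 of 9 were positive (median 0.07, against 17.2% and -0.43), and without YMP mouse 73 1 of 9 (-0.09, against 44.1% and -0.05). With the number of miRNAs expected per mega-read as a covariate it was 5 of 9 (0.06, against 46.7% and -0.02). That number comes from the same read shares and was lowest in the libraries where let-7c-5p took most reads, so this is not a separate check.

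The miRNAs nearest to a shared shift downward were miR-1198-5p, miR-429-3p, miR-708-5p, miR-532-3p and miR-140-3p. Each was lower under YMP in 4 of 4 regions by its mean log2 level, which the selection by pooled p again favoured. miR-1198-5p differed by -1.02 (95% interval -2.04 to -0.01, adjusted p = 0.998, limma). Over regions and mice it was at 23.8 ± 17.6 CPM in PBS libraries (SD, n = 14 from 4 mice). In YMP libraries it was at 11.5 ± 6.44 CPM (SD, n = 12 from 3 mice). In the pons its PBS libraries read 22.8, 7.20 and 67.9 CPM and its YMP libraries 0, 14.2 and 9.53 CPM, so the groups overlapped. miR-708-5p, encoded within the Odz4/Tenm4 gene, differed by -0.66 (95% interval -1.38 to 0.06), and in the pons its YMP libraries (29.6, 167 and 171 CPM) were all below its PBS libraries (226, 246 and 337 CPM). Those groups overlapped without the TMM factors, at 10.9, 318 and 328 against 189, 308 and 662 reads per mega-read. miR-140-3p differed by -0.65 and miR-532-3p by -0.88, with adjusted p = 0.998 for each in limma. Leaving out YMP mouse 73 reduced the size of the difference for all 10 of these miRNAs.

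**Figure D2:**
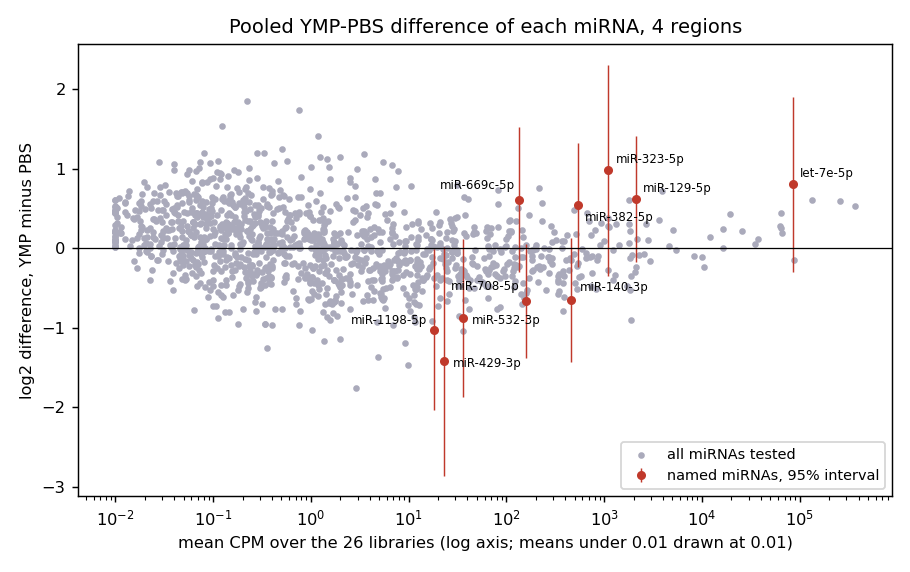
Difference between YMP and PBS over the 4 regions (vertical axis, log2) against the mean level (horizontal axis, CPM, logarithmic, with means under 0.01 drawn at 0.01), 1 point per miRNA for 1329 miRNAs. The 10 named miRNAs are in red with their 95% intervals, and 9 of the 10 intervals include 0, the exception being miR-1198-5p, whose adjusted p was 0.998.

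Within single regions, the thalamus, pons and medulla gave no called miRNA. In edgeR's quasi-likelihood test 0 of 1209 miRNAs passed in the thalamus (0% called, 53 at an unadjusted p below 0.05), 0 of 1235 in the pons (0% called, 72) and 0 of 1306 in the medulla (0% called, 59). DESeq2 called 0 in each, with 29, 27 and 48 at an unadjusted p below 0.05. Single libraries weighed on these counts. Without thalamus PBS 76, one of the libraries with low detection, 9 miRNAs passed in the thalamus, and without both thalamic libraries of low detection 0 passed. Without medulla YMP 81 there were 8 in the medulla, and without medulla YMP 77 there were 6.

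In the thalamus miR-1249-5p had the smallest p of those that averaged 10 CPM or more, at 0.878, 4.47, 0.519 and 0.667 CPM in PBS mice and 80.4, 3.73 and 1.27 CPM in YMP mice (log2 difference 4.34, edgeR adjusted p = 0.174). The groups overlapped on this scale. Without the TMM factors miR-1249-5p was at 1.08 to 1.47 reads per mega-read in PBS mice and 2.35 to 9.28 in YMP mice, all above PBS, and mouse 73 stood less far from the other YMP mice. miR-1249-5p reached a mean of 10 CPM in the thalamus through mouse 73 alone, and the mean of the other 6 libraries was 1.92 CPM. let-7k read 289 CPM in mouse 73 against 17.1 and 5.41 CPM in the other YMP mice, and 33.3 against 19.2 and 10.0 reads per mega-read without the factors. In the other direction, miR-1298-5p read 250.0 CPM in PBS mouse 72 against 9.26 to 17.0 CPM in the other PBS mice, and miR-335-5p, from an intron of Mest, read 67.2 CPM in PBS mouse 84 against 1.92 to 3.53 CPM. In each of these a single PBS library held the high value and the groups overlapped, and miR-335-5p averaged 3.03 CPM over the other 6 libraries.

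In the pons miR-5126 read 45.2, 5.71 and 23.4 CPM in PBS mice and 380 CPM in YMP mouse 73 against 11.4 and 1.71 CPM in the other YMP mice. Without the TMM factors mouse 73 held 140 reads of miR-5126 per mega-read, against 21.7 and 3.28. miR-874-5p read 152, 49.9 and 360 CPM in PBS mice and 12.7, 50.9 and 18.2 CPM in YMP mice, a log2 difference of -2.64 (edgeR adjusted p = 0.819). Only the YMP value of mouse 77 lay above the lowest PBS value. In the medulla miR-196a-5p, a Hox-cluster miRNA, read 5.98, 1.90, 1.82 and 5.03 CPM in PBS mice and 5.36, 2.03 and 63.9 CPM in YMP mice (log2 difference 2.69, edgeR adjusted p = 0.720). The value of 63.9 CPM was from mouse 81, whose medullary library had the fewest detected miRNAs of that region, at 866, and without the TMM factors it held 36.6 reads of miR-196a-5p per mega-read against 3.98 to 12.3 in the others. Its mean over the other 6 libraries was 3.69 CPM.

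The cerebellum gave 4 called miRNAs of 1235 tested (0.324%, edgeR). miR-132-3p, miR-429-3p and miR-200b-3p fell and miR-5709-3p rose. DESeq2 called 0 with 17 at an unadjusted p below 0.05, against 38 in edgeR, and gave no adjusted p for miR-132-3p. The count was 0 without PBS mouse 80 and 0 without PBS mouse 84, 1 without YMP mouse 81, and 2 without either PBS mouse 72 or YMP mouse 73.

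miR-132-3p is induced by neuronal activity through CREB. Its cerebellar PBS libraries read 59.5, 952 and 30.0 CPM and its YMP libraries 60.7, 21.6 and 46.1 CPM. The groups overlapped, and 1 PBS library, from mouse 80, stood far above the other 5. The fitted log2 difference was -3.01 (edgeR adjusted p = 0.000383), and without PBS mouse 80 it was -0.12 (adjusted p = 0.999). miR-212-3p, from the neighbouring hairpin with the same seed, read 163, 493 and 341 CPM in PBS mice and 547, 123 and 446 CPM in YMP mice, a log2 difference of 0.17.

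The isomiR counts, which record each read's ends and base changes, gave a second view of miR-132-3p. Over the 26 libraries 60.9% of its reads carried the change T17A, counted from 1 at the 5′ end of the mature sequence printed above, and 29.3% carried no change. One isomiR, with T17A and an end 3 bases short of the reference, made up 57.7% of all reads. In the cerebellum 76.5% of the reads of PBS mouse 80 carried T17A, against 0.955% to 6.43% in the other 5 libraries. Reads without any change numbered 2840 in PBS mouse 80, against 787 and 233 in the other PBS mice. Per mega-read these were 90.1, 33.1 and 7.66, and the YMP libraries held 10.8, 12.2 and 10.8, so all 3 lay above the lowest PBS library and below the other 2. When only reads without a changed base were tested, the miR-132-3p difference was -1.35 (edgeR adjusted p = 0.987), and 0 of 1172 miRNAs passed in the cerebellum. miR-5709-3p was not among those tested. Where the T17A reads came from was not tested.

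The T17A reads were common in the other regions in libraries of both treatments. They made up 14.9% to 96.9% of the miR-132-3p reads in the thalamus, 0% to 96.8% in the pons and 0.253% to 63.1% in the medulla. Total miR-132-3p ranged from 2.69 CPM in pons YMP 81 to 28766 CPM in thalamus PBS 76, while miR-212-3p ranged from 123 to 4212 CPM. Within the thalamus alone miR-132-3p ran from 5.23 to 28766 CPM and miR-212-3p from 187 to 4212 CPM.

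**Figure D3:**
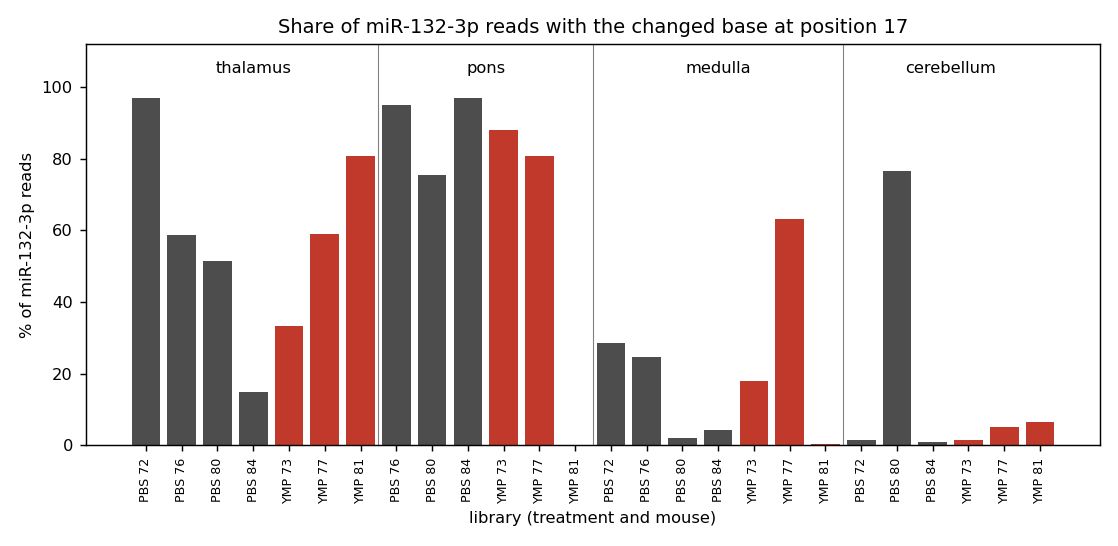
Percent of miR-132-3p reads that carry T17A (vertical axis) in each library, grouped by region, with PBS in grey and YMP in red and 1 bar per library. In the cerebellum PBS 80 stands at 76.5% and the other 5 libraries at 0.955% to 6.43%.

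miR-429-3p and miR-200b-3p hold epithelial identity by targeting Zeb1 and Zeb2, and in the brain they mark olfactory and epithelial cells. In the cerebellum miR-200b-3p read 1.29, 2.32 and 2.20 CPM in PBS mice and 0, 0.173 and 0.110 CPM in YMP mice (log2 difference -4.12, edgeR adjusted p = 0.0484). All YMP values were below all PBS values, on 27, 45 and 23 reads against 0, 2 and 1. miR-429-3p read 2.48, 14.6 and 20.5 CPM in PBS mice and 3.61, 0.260 and 1.21 CPM in YMP mice (log2 difference -2.89, edgeR adjusted p = 0.0203), and PBS mouse 72 lay below YMP mouse 73. Both miRNAs were apart without the TMM factors, miR-200b-3p at 0.756 to 1.43 reads per mega-read in PBS mice and 0 to 0.168 in YMP mice, and miR-429-3p at 2.19 to 8.95 and 0.252 to 0.945. miR-200b-3p kept its call without YMP mouse 77 and lost it when any of the other 5 mice was left out, while its log2 difference stayed between -4.82 and -3.71. Its call was also lost in edgeR with RLE size factors (adjusted p = 0.0637), with no filter (0.0528), with TMM factors from all 26 libraries (0.0527) and with a robust spread estimate (0.0680). miR-429-3p kept its call without PBS mouse 72 or YMP mouse 73 and lost it in the other 4 cases, with log2 differences from -4.13 to -2.35.

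Of the 8 listed members of the miR-200 and miR-183 families these 2 passed in the cerebellum and 6 did not, where 0.324% of all miRNAs passed. All 8 had negative differences there (median -1.71), while 43.8% of all miRNAs were positive with a median of -0.10. Their hairpins lie in clusters, miR-429 with miR-200a and miR-200b, miR-141 with miR-200c, and miR-182 with miR-96 and miR-183. The 8 members are therefore not separate observations, in this region or the others. Their summed level was 36.8 to 43.7 CPM in PBS libraries and 9.59 to 14.9 CPM in YMP libraries, without overlap, and without the TMM factors 15.0 to 32.4 and 2.87 to 14.4 reads per mega-read. Of all miRNAs tested in the cerebellum, 4.94% had groups that did not overlap as CPM and 4.13% without the factors. miR-200c-3p read 3.15, 6.25 and 4.59 CPM against 0, 2.51 and 0.882 CPM, and miR-183-5p, a sensory-cell miRNA, read 13.5, 7.80 and 11.3 CPM against 4.45, 6.24 and 3.86 CPM. Both overlapped between the groups without the factors.

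The direction was the same in the thalamus and the medulla and opposite in the pons. In the medulla 0 of 8 members were positive (median -1.63, against 48.6% positive over all miRNAs), and miR-429-3p read 48.1, 10.5, 41.0 and 53.9 CPM in PBS mice against 3.15, 10.3 and 10.3 CPM in YMP mice, all below PBS. Without the TMM factors YMP mouse 77 held 26.7 reads of miR-429-3p per mega-read, above PBS mouse 76 at 25.6. In the thalamus 0 of 8 were positive (median -1.45, against 48.7%). The summed level of the families overlapped between the groups in the thalamus, at 10.2 to 70.0 CPM in PBS libraries and 1.95 to 20.1 CPM in YMP libraries. It overlapped in the medulla too, at 97.0 to 481 CPM and 23.9 to 162 CPM, and in both regions without the TMM factors. In the pons 8 of 8 were positive (median 2.40, against 54.3%), with miR-429-3p at 42.8, 10.4 and 4.53 CPM in PBS mice and 0, 44.3 and 225 CPM in YMP mice. The YMP range there ran from a library with no read of the families to the highest summed level outside the medulla, at 444 CPM. The difference between regions did not pass in the limma interaction test for miR-200b-3p or for miR-429-3p (adjusted p = 1.00 for each).

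miR-5709-3p was called on reads from a single library. Cerebellum YMP 73 held 21 reads, and the other 2 YMP libraries and all 3 PBS libraries held 0 (edgeR adjusted p = 0.0211). A count of 0 reads among the 85.7 mega-reads of the PBS group allows up to 0.0350 reads per mega-read for counting error alone. miR-5709-3p entered the test through that 1 library, and without YMP mouse 73 no read of it was left to compare. Over all 26 libraries miR-5709-3p had 23 reads, and none of these was the exact reference sequence.

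The regions were next compared with each other in their response. In the limma interaction test 0 of 1329 miRNAs passed (0% called, 22 at an unadjusted p below 0.05). The same test of these 4 regions against the other 7 of the cohort called 0 of 1344 (0% called, 40 at an unadjusted p below 0.05). The nearest were miR-138-2-3p, with a mean YMP difference of -0.77 in the 4 regions and 0.64 in the other 7, and miR-200c-3p, with -1.48 and 0.12. The differences of those differences were -1.41 and -1.60 (adjusted p = 0.999 for each, limma). A response particular to thalamus, hindbrain and cerebellum was not detectable with these mice.

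miR-451a is made in red blood cells and marks residual blood in a punch. In the pons it read 0, 1.23 and 1.27 CPM in PBS mice and 4.24, 5.92 and 4.24 CPM in YMP mice, all above PBS on this scale. In the cerebellum it read 6.07, 7.49 and 5.64 CPM against 0.695, 2.25 and 1.43 CPM, and in the medulla 6.56, 8.76, 8.13 and 12.7 CPM against 3.57, 4.56 and 3.52 CPM, all below PBS on this scale. The medulla alone stayed apart without the TMM factors, at 13.0 to 21.4 reads per mega-read in PBS mice and 2.02 to 11.8 in YMP mice. In the pons YMP mouse 73 then held 1.56 and PBS mouse 84 held 2.49, and in the cerebellum YMP mouse 77 held 2.18 and PBS mouse 84 held 1.94, so the groups overlapped. These rest on 3 to 290 reads, or 0 in pons PBS 76. The difference between regions did not pass (adjusted p = 1.00, limma). The miR-200 and miR-183 families had the same sign as miR-451a in all 4 regions. The other erythroid miRNAs did not all move with miR-451a. Of the tested members of that list 3 of 7 were positive in the pons (54.3% of all miRNAs) and 2 of 8 in the medulla (48.6%). In the cerebellum 1 of 7 was positive (43.8%) and in the thalamus 0 of 7 (48.7%). The median log2 differences of the list were -0.04, -0.37, -0.11 and -0.83 in that order. Its summed level overlapped between the groups, at 1055 to 4234 CPM in PBS cerebellum and 768 to 2978 CPM in YMP cerebellum, and at 367 to 1209 CPM against 161 to 1497 CPM in the pons. miR-486a-5p, also from red blood cells, read 12.1, 15.5 and 5.45 CPM in PBS cerebellum and 5.56, 20.6 and 5.29 CPM in YMP cerebellum, and miR-144-5p had no reads there. The part of residual blood in the result on the miR-200 and miR-183 families was not tested.

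Means over the regions of each mouse gave a test of the study's aging miRNAs that counts each animal once. An exact permutation test over the 7 mice has 35 assignments, so its smallest two-sided p is 0.0286. The 4 tests made were adjusted together, so none could pass unless most of them reached that p. miR-155-5p, which drives inflammatory activation of microglia, averaged 5.05 ± 0.32 log2 CPM in PBS mice (SD, n = 4) and 4.53 ± 0.87 in YMP mice (SD, n = 3), with an exact p of 0.314 (adjusted 0.629). miR-146a-5p, a brake on the same signalling, averaged 8.14 ± 0.43 and 7.87 ± 0.93 (exact p = 0.629, adjusted 0.629). miR-5100 averaged -0.70 ± 0.40 and 0.03 ± 0.72 (exact p = 0.114, adjusted 0.457), and miR-451a 1.40 ± 1.39 and 0.88 ± 0.50 (exact p = 0.543, adjusted 0.629). None of the 4 separated the groups. Leaving out the 3 libraries of low detection changed the log2 difference of miR-155-5p from -0.52 to -0.21, that of miR-146a-5p from -0.26 to -0.04, that of miR-5100 from 0.74 to 0.40 and that of miR-451a from -0.52 to -0.68. Leaving out 1 mouse gave a range from -0.87 (without YMP mouse 77) to -0.09 (without YMP mouse 73) for miR-155-5p, from 0.32 (without YMP mouse 73) to 0.97 (without YMP mouse 77) for miR-5100 and from -1.24 (without PBS mouse 76) to -0.19 (without PBS mouse 72) for miR-451a.

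By region the values of miR-155-5p showed no separation either. The thalamus read 27.2, 10.2, 13.6 and 45.9 CPM in PBS mice and 13.0, 21.9 and 14.1 CPM in YMP mice. The pons read 28.5, 25.7 and 33.9 CPM against 1.41, 53.6 and 32.2 CPM, where the value of 1.41 CPM was 1 read in the library of mouse 73. The medulla read 55.5, 43.5, 36.5 and 38.6 CPM against 31.5, 42.0 and 19.7 CPM, and the cerebellum 64.0, 43.8 and 34.4 CPM against 34.0, 55.4 and 39.8 CPM. The pooled limma interval for miR-155-5p ran from -1.19 to 0.40, which leaves room for a fall of more than 1.5-fold. miR-146a-5p read 256, 84.0, 211 and 399 CPM in PBS thalamus and 56.4, 269 and 232 CPM in YMP thalamus, with overlap in the other regions as well, and its mean difference of -0.26 turned to 0.26 without YMP mouse 73.

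**Figure D4:**
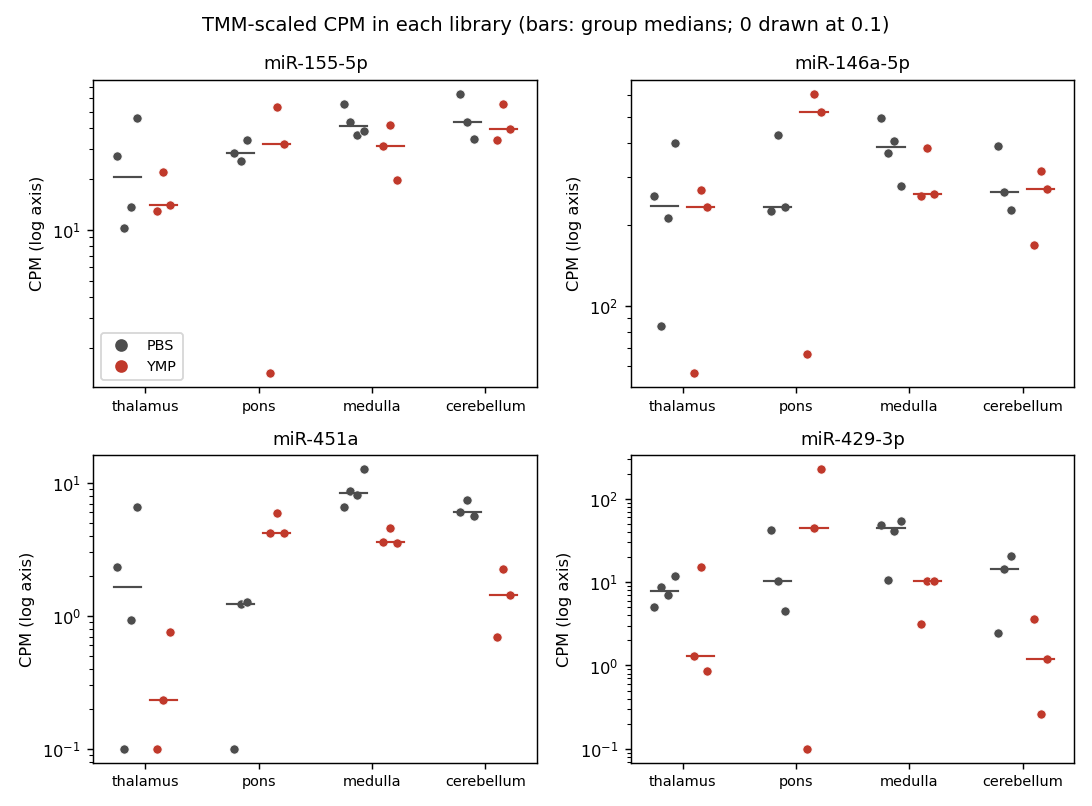
Levels of miR-155-5p, miR-146a-5p, miR-451a and miR-429-3p in CPM (vertical logarithmic axis, 0 drawn at 0.1) by region, with 1 point per library, PBS in grey, YMP in red and bars at group medians. PBS and YMP points overlap in all 4 regions for miR-155-5p and miR-146a-5p, and for miR-451a they are apart in the pons (YMP above), the medulla and the cerebellum (YMP below), of which the medulla alone is apart without the TMM factors.

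The untreated aging cohort of the series was then used to ask whether miRNAs that change with age moved back under YMP. That cohort held untreated mice of both sexes, from 3 to 28 months of age at 7 ages. In 201 libraries of 59 mice from the same regions (121 male and 80 female libraries), the age slope passed in edgeR for 51 of 1123 miRNAs in the thalamus (4.54%, 11 rising and 40 falling), 1 of 1126 in the pons (0.0888%), 6 of 1123 in the medulla (0.534%) and 7 of 1122 in the cerebellum (0.624%). A miRNA was counted once in each region where its slope passed, which gave 18 rising entries. Of these 12 were lower under YMP in the same region. Of the 46 falling entries that could be compared 24 were higher, where 48.8% of all miRNAs were higher. In edgeR none of them passed under YMP. The rising ones in the thalamus, medulla and cerebellum included miR-146a-5p, miR-5100 and, in each of them, miR-155-5p. Most of the falling ones are thalamic members of the miR-297, miR-466, miR-467 and miR-669 families of near-identical copies. Many of these copies share reads, and miR-466a-3p and miR-466c-3p, for example, had the same log2 difference of 0.19. The members of such families are not separate observations.

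Lists of miRNAs tied to a cell type or gene cluster gave 0 calls over the 4 regions together. Some lists share members, so they are not separate observations. The leukocyte and microglial lists share miR-223-3p, miR-142a-3p and miR-142a-5p. The choroid plexus and miR-34 lists share miR-34b-5p and miR-34c-5p, and the erythroid and miR-17-92 lists share miR-92a-3p. Members of the same gene cluster are not separate observations either. Of 8 erythroid miRNAs 4 were positive (median -0.08), of 5 leukocyte and platelet miRNAs 1 (-0.39), of 6 microglial and macrophage miRNAs 1 (-0.44), of 4 vascular miRNAs 1 (-0.18), of 8 neuronal miRNAs 4 (-0.03) and of 4 oligodendrocyte miRNAs 1 (-0.20), against 53.3% positive and a median of 0.03 over all miRNAs. Of 7 choroid plexus and ependymal miRNAs 4 were positive (0.21), of 7 Hox-cluster miRNAs 6 (0.26) and of 4 muscle miRNAs 1 (-0.14). The miR-17-92 cluster had 2 of 6 (-0.29), miR-29 1 of 3 (-0.09) and miR-34 0 of 3 (-0.22). The Dlk1-Dio3 cluster had 15 of 34 (-0.04), and the Sfmbt2 cluster had 28 of the 72 tested of 80 (-0.09). The largest median among the lists was that of the miR-200 and miR-183 families, at -1.09 with 0 of 8 positive, and it was -0.53 with 1 of 8 positive without YMP mouse 73. It ran to -1.55 without YMP mouse 77. Most other list medians also turned on 1 mouse. Without YMP mouse 73, with 44.1% of all miRNAs positive, the microglial and macrophage median was -0.10 and the Hox-cluster median 0.12, and the vascular list was positive in 4 of 4 (0.10), the oligodendrocyte list in 4 of 4 (0.09), the choroid plexus and ependymal list in 7 of 7 (0.21), miR-29 in 3 of 3 (0.16), miR-34 in 3 of 3 (0.21), the miR-17-92 cluster in 3 of 6 (0.10) and the Dlk1-Dio3 cluster in 23 of 34 (0.16). Without YMP mouse 77, with 59.4% positive, the muscle list was positive in 3 of 4 (0.18) and the Hox-cluster list in 7 of 7 (0.59), while the medians were -0.76 for microglia and macrophages, -0.44 for the vascular list, 0.43 for the choroid plexus and -0.24 for the erythroid list. Without YMP mouse 81, with 55.8% positive, the medians were -0.19 for leukocytes and platelets, -0.15 for neurons, -0.42 for oligodendrocytes, -0.44 for muscle, -0.46 for the miR-17-92 cluster and -0.36 for miR-29. Leaving out a PBS mouse moved the medians of the Hox cluster to 0.58, the Sfmbt2 cluster to 0.06, the Dlk1-Dio3 cluster to 0.06, miR-29 to 0.14 and miR-34 to 0.16 (mouse 72), the erythroid and miR-34 medians to -0.29 and -0.48 (mouse 76) and the leukocyte and platelet, neuronal and choroid plexus medians to -0.18, 0.06 and 0.06 (mouse 80). The erythroid list was positive in 0 of 8 (-0.22) without the 3 libraries of low detection. Scaled to total reads, with 17.2% of all miRNAs positive, the choroid plexus and Hox-cluster medians were -0.19 and -0.55.

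The isomiR with the most reads was the reference sequence for all 10 miRNAs named from the pooled contrast, at shares from 15.6% of reads for miR-140-3p to 61.7% for miR-429-3p. The 5′ end, which fixes the seed, matched the reference in 98.9% of miR-129-5p reads but in 53.0% of miR-140-3p reads and 76.6% of miR-382-5p reads. For miR-140-3p the reference 5′ end was used by 45.3% to 60.3% of reads in PBS libraries (median 53.0%) and by 46.0% to 55.5% in YMP libraries (median 53.1%), so the groups overlapped. The reference sequence also led for miR-155-5p, at 29.1%, and for miR-146a-5p, at 34.7%. miR-5100 had 237 reads in all, and none of them was the exact reference sequence.

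Base changes in the seed were examined last, since adenosine-to-inosine editing, read as A-to-G, can alter a miRNA's targets. Positions are counted from 1 at the 5′ end, and each share is that of reads with this change alone among the reads of the miRNA that start at the reference 5′ end. A site was kept where the share over the 26 libraries was at least 5%. There were 10 such sites. The highest shares were those of miR-3099-3p A7G at 81.5%, miR-376b-3p A6G at 69.9% and miR-411-5p A5G at 63.0%. The shares differed by region, which is given as a description with no test. miR-381-3p A4G was at 7.01% to 15.2% in the cerebellum, 21.9% to 58.4% in the pons and 32.0% to 56.8% in the medulla, and the thalamus, at 2.27% to 46.1%, overlapped with all of them. miR-497a-5p A2G was at 19.4% to 25.6% in the cerebellum, 0% to 12.8% in the thalamus and 2.02% to 9.66% in the medulla, and the pons, at 4.46% to 20.5%, reached into the cerebellar range. miR-376b-3p A6G was at 30.7% to 61.5% in the cerebellum and at 63.2% to 84.4% in the other 3 regions.

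Between treatments, 9 sites were tested by exact permutation of mouse means and none passed after adjustment. A site could pass only if most of the 9 reached the smallest p that 7 mice allow. miR-154-5p A2G averaged 7.40% ± 0.31 in PBS mice (SD, n = 4) and 6.26% ± 0.56 in YMP mice (SD, n = 3), and miR-3099-3p A7G averaged 82.9% ± 0.75 and 81.1% ± 1.12. In both the groups were separate and the exact p was 0.0286, the smallest that 7 mice allow, with an adjusted p of 0.129. miR-376b-5p A7G averaged 15.4% ± 2.74 and 11.6% ± 2.63 (exact p = 0.143, adjusted 0.429).

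**Figure D5:**
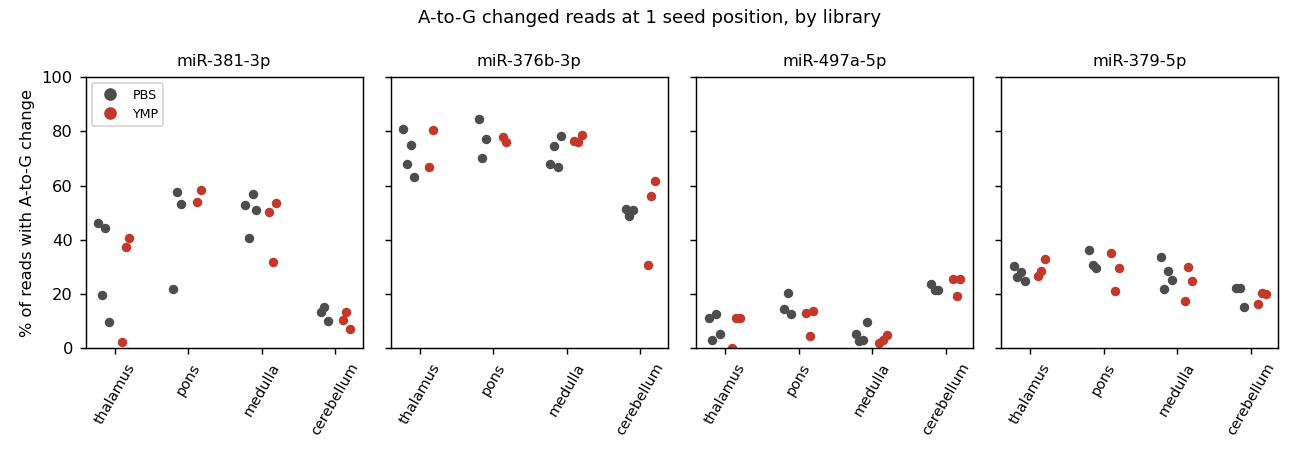
Percent of reads with the reference 5′ end that carry only the A-to-G seed change (vertical axis) of miR-381-3p (A4G), miR-376b-3p (A6G), miR-497a-5p (A2G) and miR-379-5p (A5G) by region, with 1 point per library that held at least 20 reads, PBS in grey and YMP in red. Cerebellar libraries lie below those of the pons and medulla for miR-381-3p (7.01% to 15.2%), where the thalamus (2.27% to 46.1%) overlaps with them, and above those of the thalamus and medulla for miR-497a-5p (19.4% to 25.6%), where the highest pons library is at 20.5%.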

How the data were processed

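Small RNA was sequenced on a BGISEQ instrument, and the authors mapped reads with miRMaster to the mouse genome (GRCm38, mm10 in the labels) and to miRBase. The deposited miRNA and isomiR tables hold estimated counts, of which 0.816% are not whole, since reads are split between copies, and they were rounded. The plasma table listed 1966 miRNAs, and a miRNA entered a test if 10% or more of the libraries of any 1 region held 5 reads of it or more. The YMP contrast over 4 regions was fitted with limma 3.58.1 (voom, TMM, region as a term, mouse as block, correlation 0.0548). Each region was fitted with edgeR 4.0.16 (quasi-likelihood, TMM within the region), and DESeq2 1.42.0 was an alternative, in R 4.3.3. Adjusted p-values are Benjamini-Hochberg over all miRNAs tested. A call needed adjusted p below 0.05 and a fold of at least 1.5 for YMP against PBS, and adjusted p alone elsewhere. Printed CPM use TMM factors from all 26 libraries. TMM factors spread widely (0.115 to 2.60), so let-7e-5p and let-7c-5p are given as a percent of reads in the comparisons, and other values that turn on 1 library also as reads per mega-read without the factor. Age slopes were fitted in edgeR with sex as a term.

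Named miRNAs were every call (up to 10 in each direction, or up to 3 in a region), and where fewer than 5 (pooled) or 2 (region) were called also the 5 or 2 with the smallest p in each direction at a mean of at least 10 CPM, the 2 with the smallest p in the interaction and in the contrast with the other 7 regions, and the list members. The 4 leaders of each region, the isomiRs of miR-132-3p and the A-to-G sites were chosen after their values were seen. The members, lists and tests were chosen with earlier results of these data known, and the isomiR tests, the tests of A-to-G shares, the region test, the values without TMM factors and the fits without the libraries of low detection were added after seeing the data. Libraries held 1.93 to 31.5 mega-reads of miRNA. The intervals of log2 differences come from the limma fit and rest on the spread between libraries. The upper limit given for miR-5709-3p in PBS libraries covers counting error only, since reads carried no molecular identifiers. Mice were checked as blocks by the correlation of their libraries after group means were removed, which averaged 0.0112 within a mouse and was over 0.1 in 1 of 7 mice. The scripts were run on simulated counts with large changes in miRNAs of many reads and no differences between mice. That run does not check the mouse block or the power to detect small differences. Mature sequences and coordinates came from RefSeq on GRCm38.p6, where 124 of 206 names looked up had one.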

Additional observations from a re-analysis of the deposited data

Results flagged for a closer look

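A single library lay far from the others of its group in 11 of 52 groups of 4 PBS libraries tested. Chance gives about 1 in 20 in independent groups of normally distributed values, and CPM were not shown to be so distributed. These groups are also named miRNAs that share the same libraries, and 6 of the 11 come from 1 library. That rate therefore does not apply to their number. All values are CPM scaled by TMM. In the thalamus, mouse 76, whose library was among those of low detection, held 4023 CPM of miR-323-5p (others 176 to 357), 269674 CPM of let-7e-5p (others 15184 to 26621), 4.47 CPM of miR-1249-5p (others 0.519 to 0.878), 41.8 CPM of let-7k (others 2.29 to 5.27), 8.94 CPM of miR-196a-5p (others 0) and 28766 CPM of miR-132-3p (others 5.23 to 1788). Mouse 72 held 250.0 CPM of miR-1298-5p in the thalamus. Mouse 84 held 67.2 CPM of miR-335-5p and 36.4 CPM of miR-200c-3p in the thalamus, and 1378 CPM of miR-129-5p and 22049.9 CPM of let-7e-5p in the medulla. The TMM factor was 0.303 in thalamus PBS 76 against 1.64 to 2.07 in the other 3, and 1.30 in medulla PBS 84 against 1.98 to 2.44. Without the factors 4 of the 11 still stood apart by the same criterion, namely miR-1298-5p, miR-335-5p, miR-196a-5p and miR-200c-3p, and 7 did not. Mouse 76 then held 8.16% of thalamic reads as let-7e-5p (others 2.94% to 4.37%) and 0.871% as miR-132-3p (others 0.000858% to 0.370%). Medulla PBS 84 held 2.86% as let-7e-5p, within the range of the others (2.17% to 2.99%).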

How the results depend on the processing

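The pooled contrast, the interaction and the contrast of 4 against 7 regions called 0 miRNAs under every alternative run, with and without the replicate block (mouse), and leaving out each mouse gave 0 to 0. In the cerebellum the 4 calls became 0 with total-count scaling, 1 edgeR fit of all 26 libraries and limma voom. They also became 0 at a mean of at least 10 CPM, in DESeq2 and with reads without a changed base, where not all 4 could be called. At a mean of at least 10 CPM miR-132-3p alone of them was left to test. DESeq2 gave no adjusted p for miR-132-3p, and miR-5709-3p was not tested with reads without a changed base. There were 2 calls with a robust spread estimate. With RLE size factors, no filter or TMM factors from all 26 libraries there were 3, without miR-200b-3p. The cause of these changes was not tested. RLE size factors called 1 miRNA in the thalamus. Leaving out 1 mouse gave 0 to 9 calls in the thalamus, 0 to 0 in the pons, 0 to 8 in the medulla and 0 to 5 in the cerebellum. The mouse-mean difference of miR-146a-5p ranged from -0.54 to 0.26, and 0.26 was the value without YMP mouse 73. Of the age-rising entries, each a miRNA in a region, 7 of 11 were lower under YMP with male aging mice only. It was 13 of 17 at a mean of at least 10 CPM and 5 of 7 with total-count scaling. With 1 mouse left out 8 to 13 were lower. Of the age-falling entries, 11 of 24 were higher with males only. It was 8 of 9 at a mean of at least 10 CPM and 15 of 53 with total-count scaling. With 1 mouse left out 17 to 37 were higher. Under total-count scaling 17.2% of all miRNAs were higher in the pooled contrast, which is another fit than the single-region fits behind these counts. In the main single-region fits 48.8% of all miRNAs were higher. That share was not worked out for the other settings, so their counts have no background and nothing is read from them. Among the miRNAs tested, 72.6% had a mean below 10 CPM, where few reads limit what can be detected, and with 3 YMP mice only large differences could pass.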
